A study of Mus musculus with 4 samples.

Results

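Kera and Lum encode keratocan and lumican, 2 small leucine-rich proteoglycans of the extracellular matrix. They were chosen by the listed differences themselves, as rows named Kera or Lum in the authors' deposited tables of called transcripts, so their values describe these libraries and are not tested here. They are 2 of the 235 named genes in the 6 tables, and hold 5 of the 726 rows. The samples were gonads, labelled as testis, dissected away from the mesonephros of CD1 mouse embryos of wild-type genotype at E13.5. Each of 4 groups had 1 library: Control (treatment labelled none), then ACE+ACE (acetaminophen), then ASP+ACE (aspirin and acetaminophen) and lastly IBU+ACE (ibuprofen and acetaminophen), as the names are read here. The sources used here do not give doses, days of exposure or any pooling of embryos. The tables name the control library EtOH, and it was matched to Control as the library left once the 3 drug names had been matched. The series concerns how exposure before birth to these painkillers bears on the forming testis. No group has a second library, so the spread between samples is unknown and every comparison is of 1 library with another.

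Small leucine-rich proteoglycans are secreted proteins built of a curved stack of leucine-rich repeats that carry sugar chains. Many of them bind collagen fibrils and limit how thick the fibrils grow. Keratocan and lumican carry keratan sulfate chains in the cornea, where both help to keep the matrix regular. Lumican is also made by fibroblasts and mesenchyme of many organs, whereas keratocan is known mainly from the cornea and has a narrower range.

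Both genes lie on mouse chromosome 10, on the plus strand, in a row of 4 proteoglycan genes in the order Dcn (decorin), Lum, Kera and Epyc (epiphycan). In the GENCODE M21 annotation of GRCm38, Lum spans 97565128 to 97572703 and Kera 97606879 to 97613692. The gap between them is 34.2 kb, with 47.0 kb between Dcn and Lum and 30.4 kb between Kera and Epyc. A long non-coding RNA gene, 4930473O22Rik, lies on the minus strand between Lum and Kera, 9.95 kb before Kera. Neither flanking proteoglycan gene has a row in any table. A missing row means that no difference was called or that none was tested, not that levels were equal.

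**Figure D1:**
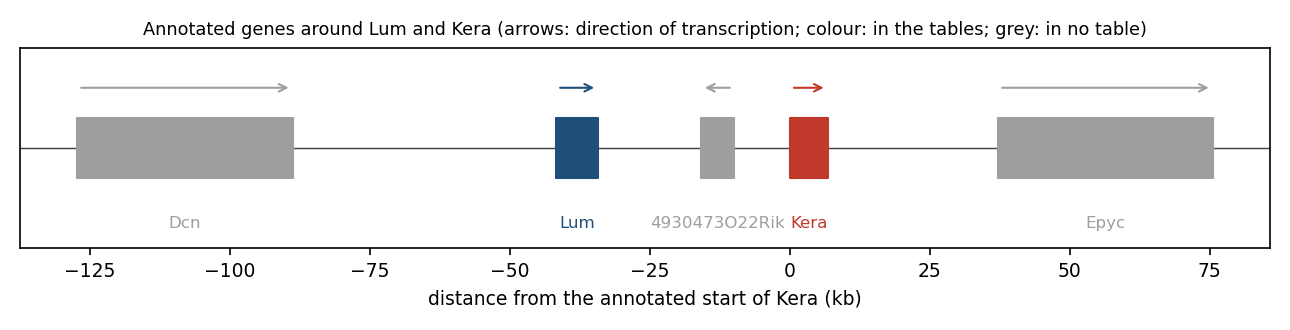
Annotated genes around Lum and Kera, drawn to scale along the distance in kb from the annotated start of Kera, with arrows for the direction of transcription. Lum (blue) and Kera (red) are neighbours among the coding genes and have rows in the tables, while Dcn, Epyc and the non-coding gene 4930473O22Rik (grey) have none.

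The 2 genes share an exon plan. Each annotated transcript has 3 exons, the first wholly 5′ untranslated, and codes from exon 2. Kera has 889 coding bases in exon 2 and 164 in exon 3 for 351 codons, and Lum has 862 and 152 for 338 codons. Of the 18 genes of the proteoglycan list, 5 have this plan with most coding bases in exon 2: Fmod, Kera, Lum, Omd and Prelp. Aligned end to end, the coding sequences were identical at 57.4% of 991 aligned bases. The ungapped stretch of 60 aligned bases with the most matches lies in exon 2 of both genes, at chr10:97609000-97609059 in Kera and chr10:97568446-97568505 in Lum (GRCm38, plus strand). It is shown because it is where the coding sequences come closest, with the 41 shared bases in capitals, 5′ to 3′.
Kera: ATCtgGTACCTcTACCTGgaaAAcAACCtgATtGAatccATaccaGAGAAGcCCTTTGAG
Lum: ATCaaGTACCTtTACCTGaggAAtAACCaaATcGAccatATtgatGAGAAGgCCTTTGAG
Even there no long exact run is shared, and the longest run common to the 2 whole transcripts is 12 bases. None of the 2231 distinct 50-base words of the Kera transcript, and none of the 2399 of Lum, occurred in a transcript of another gene among the 141767 searched, on either strand. Sequenced reads were 75 nt long.

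The deposited transcript of each gene overlaps 1 annotated gene, its own. The deposited Kera locus (chromosome 10, 97607205 to 97613688) starts 326 bases after the GENCODE start and ends where the RefSeq gene ends. The deposited Lum locus (97565426 to 97572705) starts 298 bases after the GENCODE start. Neither locus reaches into the next proteoglycan gene.

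Kera was low in 3 libraries and higher in the IBU+ACE library. Levels here are the 2 library values that each deposited row holds, taken to be FPKM (fragments mapped to a transcript, scaled to its length in kilobases and to the library's mapped fragments), so that genes of different length can be compared. Its level was 0.203 FPKM in Control, against 0.0734 in ACE+ACE and 0.125 in ASP+ACE, while IBU+ACE gave 3.53. The IBU+ACE value stood above all others by 17.5-fold over Control, 48.1-fold over ACE+ACE and 28.4-fold over ASP+ACE. The authors' deposited tables list Kera in all 3 comparisons with IBU+ACE, with log2 fold changes of 4.13, 5.59 and 4.83 and a q-value of 0.0310, the same for every row of the series.

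Lum, the broadly expressed member, was abundant in every library that has a value and rose by a smaller ratio. It had 11.3 FPKM in Control, 9.02 in ACE+ACE and 18.6 in IBU+ACE. No table gives its ASP+ACE level, since Lum has no row in any comparison with that library. The authors' deposited tables list Lum as higher in IBU+ACE than in Control, by 1.65-fold (log2 0.72), and than in ACE+ACE, by 2.06-fold (log2 1.04).

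**Figure D2:**
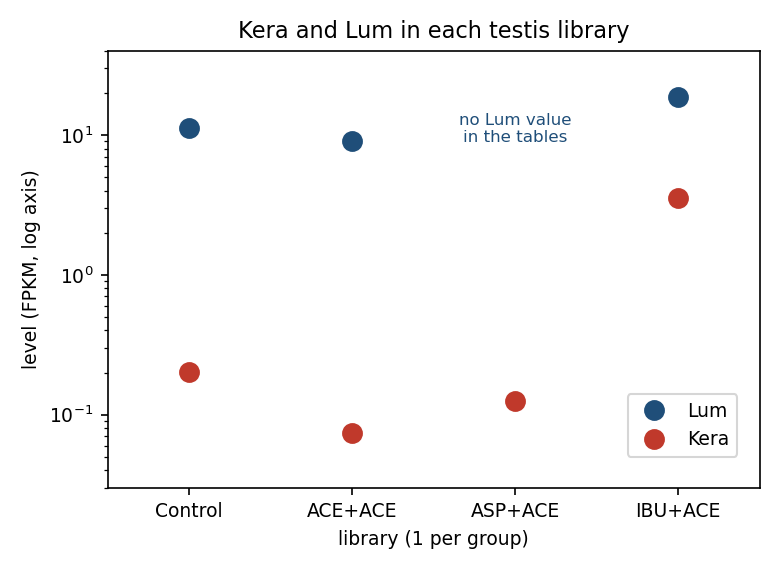
Level of Kera (red) and Lum (blue) in FPKM on a log axis, 1 point per library, with no error bars because each group has 1 library. Kera lies between 0.0734 and 0.203 FPKM in 3 libraries and at 3.53 in IBU+ACE, and Lum lies between 9.02 and 18.6 FPKM with no value for ASP+ACE.

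On the scale of level differences the order of the 2 genes is the other way round. From Control to IBU+ACE Lum gained 7.30 FPKM and Kera 3.33 FPKM, and from ACE+ACE to IBU+ACE Lum gained 9.57 FPKM and Kera 3.46 FPKM. Lum was 55.8 times as abundant as Kera in Control, 123 times in ACE+ACE and 5.26 times in IBU+ACE. Multiplied by the annotated transcript lengths of 2280 nt for Kera and 2448 nt for Lum, the levels correspond to 0.462 fragments of Kera in each 1000000 mapped fragments of Control and 8.06 in IBU+ACE, against 27.6 and 45.5 for Lum. The deposited loci start 326 bases (Kera) and 298 bases (Lum) after the annotated starts. Their transcripts may thus be shorter than annotated, and these fragment numbers are approximate and may be too high. The low Kera values rest on few fragments. The labels state 40000000 reads per sample, but the mapped fragments of each library are unknown, so no counting interval is given. In whole gonads, more cells of a type and more RNA per cell cannot be told apart.

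Among the 3 libraries other than IBU+ACE, neither gene has a row in any table. Those tables are short, listing 17.5% of the 382 transcripts for ACE+ACE against Control, 11.5% for ASP+ACE against Control and 6.28% for ASP+ACE against ACE+ACE. Kera was 2.76-fold higher in Control than in ACE+ACE and 1.63-fold higher in Control than in ASP+ACE, differences the authors did not list. For Lum the ratio of Control to ACE+ACE was 1.25. The order of Kera levels, from highest, was IBU+ACE, Control, ASP+ACE and ACE+ACE, and the last 3 places cannot be separated without replicates. Lum had the same order over its 3 libraries.

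By ratio, Kera stood near the top of the transcripts listed as higher in IBU+ACE and Lum in the lower part. The authors' deposited tables list 151 transcripts as higher in IBU+ACE than in Control, 39.5% of the 382 transcripts with a row in any table. For ACE+ACE the share was 54.2% and for ASP+ACE 41.9%. Both members belong to the tables by choice, so these shares are background and nothing is read from them. Of the 127 transcripts with a value above 0 in both libraries against Control, Kera ranked 5 by deposited log2 fold change, after Hoxd13, Hoxa13, Gdf5 and Irx1, and Lum ranked 120. Against ACE+ACE, Kera ranked 1 of 180 and Lum 152. Against ASP+ACE, Kera ranked 7 of 146. These Kera ranks rest on values under 1 FPKM in the other library and leave out transcripts listed at 0 there. With 1 FPKM added, the Kera log2 ratio over ACE+ACE was 2.08 in place of 5.59, and ranks were not recomputed. By level in IBU+ACE the places were exchanged against Control, with Lum 20 and Kera 62 of the 127, whose median was 3.18 FPKM.

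**Figure D3:**
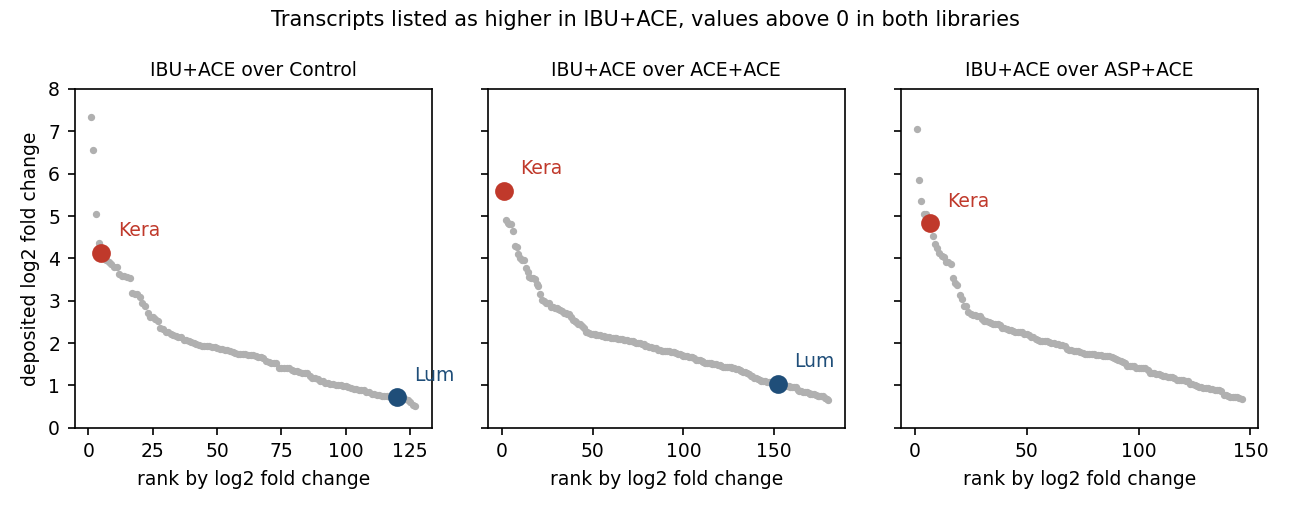
Deposited log2 fold change of every transcript listed as higher in IBU+ACE with values above 0 in both libraries (grey points), ordered from the highest, in the comparison with Control, ACE+ACE and ASP+ACE. Kera (red) is 5 of 127, 1 of 180 and 7 of 146, Lum (blue) is 120 of 127 and 152 of 180, and Lum has no row in the third comparison. The Kera ranks rest on values under 1 FPKM in the other libraries.

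Kera was 1 of 85 transcripts, of 69 named genes, listed as higher in IBU+ACE in all 3 tables. Among the 81 of them with all 4 values above 0, the median log2 ratio of ACE+ACE over Control was -0.18, and Kera was the lowest at -1.46. For ASP+ACE over Control the median was -0.13 and Kera stood 9th from the lowest at -0.70. Both Kera ratios rest on values under 1 FPKM, in 1 library each, and the authors did not list them. With 1 FPKM added they were -0.16 and -0.10, so no fall of Kera is read from these places. Lum was 1 of 21 transcripts listed as higher in IBU+ACE against Control and ACE+ACE but not against ASP+ACE. These included 12 named genes, among them Col12a1, Irx1 and Dnmt3l, and the log2 over Control of the 17 with a Control value above 0 ran from 0.69 to 4.38, with Lum at 0.72.

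Of the proteoglycan family, only Kera and Lum have rows in the tables. They are the 2 of 18 small leucine-rich proteoglycan genes listed as higher in IBU+ACE than in Control, with 0 listed as lower. Of all 21924 annotated protein-coding genes, 0.379% were listed as higher and 0.0593% as lower in that comparison. Both were also listed against ACE+ACE (0.575% of coding genes higher, 0.0456% lower), and Kera alone against ASP+ACE (0.465% higher, 0.0182% lower). The median log2 fold change of all 127 transcripts higher than in Control with values above 0 in both libraries was 1.71, with Kera above it at 4.13 and Lum below it at 0.72. The list includes the pair that chose it, so its count has no bearing of its own. The other 16, which include the collagen-binding decorin (Dcn), biglycan (Bgn) and fibromodulin (Fmod) and the bone and cartilage proteins Ogn, Omd, Chad and Epyc, were listed in no table. Of all coding genes, 0.871% have a row in any table.

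The enzymes that build the sugar chains gave no row. Of 12 keratan sulfate synthesis genes, among them the sulfotransferases Chst1 and Chst5, the N-acetylglucosaminyltransferase B3gnt7 and the galactosyltransferase B4galt4, 0 were listed in any table. Of 10 genes for proteins reported to bind lumican or act downstream of it, such as Tlr4, Cd14, Mmp14 and Tgfbr1, 0 were listed either. Since 0.871% of all coding genes have a row in any table, 0 rows in lists this short say nothing about these genes. The tables hold called transcripts alone, so the levels of these genes are not known here.

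Some collagens that form or decorate fibrils were listed beside Kera and Lum. Of 32 genes for fibrillar collagens, fibril-associated collagens and fibril-processing proteins, 5 rose and 0 fell in IBU+ACE against Control, where 0.379% of coding genes were higher and 0.0593% lower. Their median log2 fold change was 1.94, beside 1.71 over all 127 higher transcripts with values above 0 in both libraries. Against ACE+ACE 5 rose, and against ASP+ACE 4 rose, with 0 lower in both. This list was chosen with earlier results of these data known, so its counts are description only. Col2a1, the main fibrillar collagen of cartilage, had 36.3 FPKM in IBU+ACE, against 2.92 in Control, 2.25 in ACE+ACE and 1.10 in ASP+ACE. It was the 1 list member with a row between libraries other than IBU+ACE, having fallen in ASP+ACE against Control. Col9a1, which coats cartilage fibrils, had 2.05, 1.54, 1.07 and 7.83 FPKM in Control, the ACE+ACE library, ASP+ACE and IBU+ACE for its transcript listed in all 3 tables.

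Col11a1, which starts thin fibrils, had 6.04, 5.88, 5.31 and 12.1 FPKM. Col11a2, its partner chain, is represented by 2 transcripts, of which the one listed against Control went from 0.340 to 1.40 FPKM. Col12a1, a fibril-associated collagen of tendon, skin and other dense tissue, had 5.61 FPKM in Control, 4.74 in ACE+ACE and 9.31 in IBU+ACE, with no ASP+ACE value. By ratio Kera lay above all of these against Control, and Lum lay below them, next to Col12a1 at a log2 of 0.73. The most widespread fibrillar collagen genes, Col1a1, Col1a2 and Col3a1, had no row in any table.

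**Figure D4:**
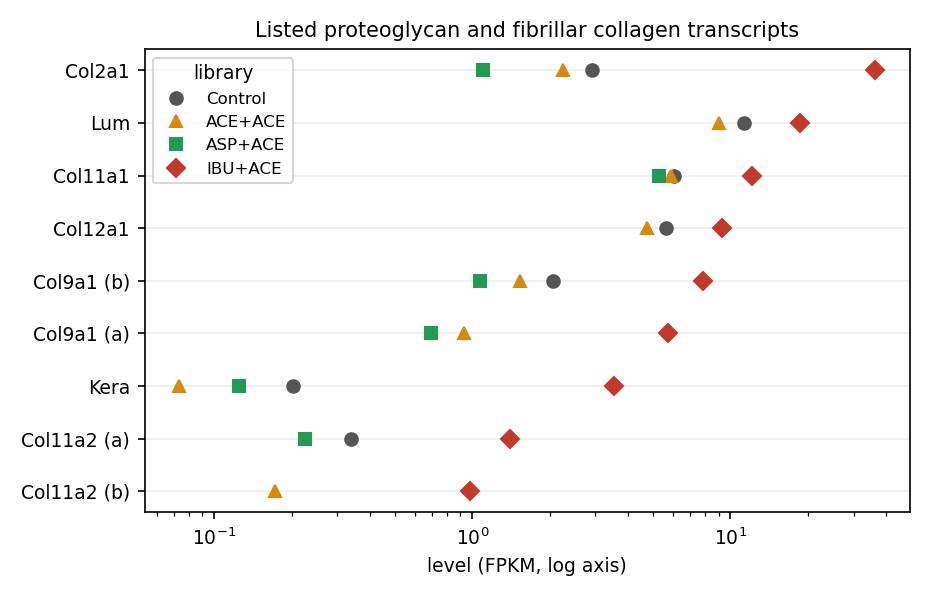
Level in FPKM on a log axis of each proteoglycan and fibrillar collagen transcript with a row in the tables, 1 point per library where a table gives the value; (a) and (b) mark 2 transcripts of 1 gene. IBU+ACE (red diamonds) is the highest library in each row, and the transcripts shown are those called as higher in it. The gap over Control runs from 0.203 to 3.53 FPKM for Kera and from 11.3 to 18.6 for Lum.

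The genes closest to each member in pattern differed. Likeness was the root mean square distance between log2 levels centred on each gene's mean, so that it counts the size of the differences as well as their shape. Among 92 named transcripts with all 4 values above 0, the nearest to Kera were Cxcl14 (a chemokine gene; distance 0.36), Lmx1b (a homeobox gene of dorsal limb; 0.39), Msx1 (a homeobox gene of limb and face mesenchyme; 0.52), Gm13111 (annotated as an antisense RNA; 0.53) and Gabrp (a GABA receptor subunit; 0.55), against a median of 1.47. Cxcl14 had 0.855, 0.447, 0.386 and 12.9 FPKM, and Msx1 had 0.788, 0.659, 0.676 and 12.7 FPKM, in the same library order. Kera lay below all 5 in ACE+ACE relative to its own mean, by a value that rests on few fragments.

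Lum could be compared over 3 libraries, among 116 named transcripts. The nearest were Gas1, a cell surface protein that binds hedgehog ligands (distance 0.021), Col12a1 (0.036), Capn6 (0.078), the transcription factor gene Sox11 (0.094) and Gm26778 (0.11), against a median of 0.52. Gas1 had 20.0 FPKM in Control, 15.9 in ACE+ACE and 31.9 in IBU+ACE. Kera was 113th of 115 transcripts in distance from Lum, at 1.93, so the neighbouring genes were far apart in the size of their differences. With so few libraries these distances are a description, and the names depend on the measure: by Pearson correlation 0 of the 5 nearest to Kera and 1 of the 5 nearest to Lum were kept, and with log2 of the value plus 1 it was 0 and 3.

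**Figure D5:**
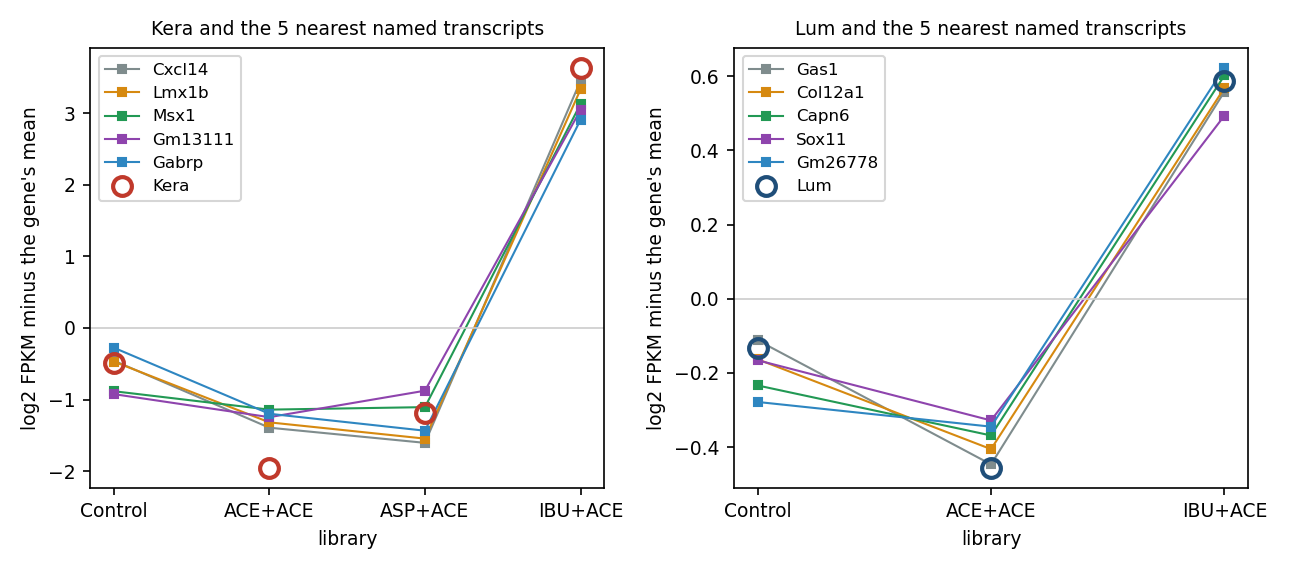
Log2 FPKM minus the gene's own mean, by library, for Kera (left, open red circles, 4 libraries) and Lum (right, open blue circles, 3 libraries) with the 5 nearest named transcripts of each (squares and lines). The vertical range is wider for Kera, whose IBU+ACE level stood 5.59 log2 units over ACE+ACE against 1.04 for Lum.

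Other markers moved in the same library as Kera and Lum. Of 18 limb and genital mesenchyme markers, 8 rose and 0 fell in IBU+ACE against Control (0.379% of coding genes higher, 0.0593% lower), and the 5 with all 4 values summed to 6.34, 4.97, 5.38 and 43.0 FPKM in the same library order. Lmx1b and Msx1, among the nearest to Kera by root mean square distance, belong to this list. Neither was among the 5 nearest by Pearson correlation or with log2 of the value plus 1. By both of those measures Twist1 of this list and the epidermal marker Krt5 were among the 5 nearest. Of 18 cartilage and joint markers, which include Col2a1, Col9a1, Col11a1 and Col11a2, 8 rose, the 6 with all 4 values summing to 17.2, 15.9, 12.9 and 72.3 FPKM. Of 12 epidermal markers 4 rose, all with 4 values, summing to 4.65, 3.43, 3.69 and 19.0 FPKM. The transcripts summed in these lists were all called as higher in IBU+ACE, so the sums are high there by that choice. The lists were also chosen with earlier results of these data known, so their counts are description only. Uncalled list members have no values and are left out. Xist, the RNA of the inactive X chromosome of female cells, had 0.954, 0.710, 0.668 and 11.1 FPKM. Evx2, a distal limb gene, was listed at 0 in ASP+ACE and at 1.82 FPKM in IBU+ACE. The part of these tissues, or of female cells, in the Kera and Lum values was not tested. With 1 library per group, the tissue content and sex of the IBU+ACE library cannot be told apart from its treatment.

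Lists for the tissues where the 2 genes are best known gave few rows. Over all coding genes the shares listed as higher were 0.379% against Control, 0.575% against ACE+ACE and 0.465% against ASP+ACE. At such shares, 0 or 1 rows in lists this short say nothing about these tissues. Of 9 cornea and eye markers, 8 of them in the annotation, 0 were listed against Control or ACE+ACE, and 1 against ASP+ACE, the mesenchymal factor Foxc1, at 2.14 FPKM in ASP+ACE and 4.60 in IBU+ACE. Of 8 tendon and dense connective tissue markers 0 were listed against Control and 1 each against ACE+ACE and ASP+ACE. Of 16 testis interstitial and peritubular markers Lum itself was the 1 listed gene. Lum was chosen from the listed rows, so nothing is read from this count. Of 10 liver markers 0 were listed against Control, 7 rose against ACE+ACE and 3 (Afp, Alb and Apoa1) rose against ASP+ACE. Without a row against Control, the 7 had log2 ratios of IBU+ACE over Control from -0.21 for Afp to 0.80 for Ahsg, which went from 5.90 to 10.3 FPKM, beside 0.72 for Lum. The same 7 fell in ACE+ACE against Control, a comparison that lists 50 transcripts as lower and 17 as higher. Together these are 17.5% of the 382 transcripts with a row in any table. The part of liver RNA in the Kera and Lum values was not tested. Fetal Leydig, endothelial and macrophage markers (7 genes each) had 0 rows in any table with IBU+ACE. Of the 8 germ cell markers a transcript named Sox2 fell against Control, where 0.0593% of coding genes were listed as lower. Its deposited locus is long, from 34104270 to 34682619 on chromosome 3. Whether it stands for Sox2 alone was not tested, so no germ cell change is read from it. Of the 11 Sertoli markers Sox9, which is also a cartilage marker, and Cst9 rose against Control. Of the 8 mesonephros and kidney markers Osr1 rose in all 3 comparisons with IBU+ACE. Of 9 skeletal muscle markers 0 were listed against Control, 2 against ACE+ACE and 3 against ASP+ACE.

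On the side of Kera away from Lum, the nearest transcript with a row was an unnamed one 2.51 Mb further along chromosome 10. Of 186 named transcripts whose highest value was in IBU+ACE, 21 (11.3%) had a transcript of another such gene within 50 kb, Kera and Lum among them. Of all 382 transcripts with a row, 112 (29.3%) had another within 50 kb, a wider count that includes unnamed transcripts and those of the same gene. The pair was chosen beforehand, so nothing is read from its place in these counts.

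The RefSeq promoter table (GRCm38.p6) holds a window for Kera, from 250 bases before to 50 after its first transcribed base at position 97607205 of chromosome 10, the same base at which the deposited transcript starts. GENCODE places the start of Kera upstream of this window, so the window lies inside its first exon. The RefSeq gene itself begins at 97606962, close to the first base of the window, so the matches below lie within that gene as well. Searches on both strands covered the TATA box (TATAAA) and the E-box (CANNTG). They also covered the CCAAT box, the SOX factor core (ACAAAG), the GC box (GGGCGG) and the AP-1 site (TGAGTCA). The motif CCAAT, whose reverse complement is ATTGG, was present 3 times, and 37.4% of 32851 promoter windows of this length hold it at least once. The matches, with the motif in capitals, are shown because they are the repeated element of the window, from the most distant to the nearest to the start.
Kera at chr10:97607033-97607055: tgggttgaaATTGGagccaacag
Kera at chr10:97607089-97607111: acagcaaagATTGGgtcaattca
Kera at chr10:97607122-97607144: cagcagtgaCCAATaggaaagga
ACAAAG was present 1 time, as in 18.7% of all windows. The letters of the other 4 motifs were not in the window. Their shares over all windows were 13.6% for TATAAA, 72.3% for CANNTG, 35.7% for GGGCGG and 5.2% for TGAGTCA. A match is a description of letters and not a bound site.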

How the data were processed

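Total RNA of E13.5 mouse gonads was sequenced from stranded, ribosomal RNA-depleted libraries as paired reads, per the labels' protocols. Tools named in the submitters' processing notes are TopHat2 2.1, Bowtie2 2.2.6, Cufflinks 2.2.1, SAMtools 1.3, bcl2fastq 2.17 and FastQC, and the build is GRCm38. No settings are given there. The authors deposited 6 pairwise tables with 2 values (taken as FPKM from the column layout; no header states it), a log2 fold change, a p-value of 5e-05 and a q-value of 0.0310 in every row. All rows are marked significant, so uncalled transcripts are missing and the number tested is unknown.

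Decimal commas were turned into points (Python 3.11.15, pandas 2.3.3, numpy 2.4.6), and values of 1 library were combined across tables; 0 disagreed. Recomputed log2 values differed by at most 1.09e-05. Reading was tested on 200 simulated rows, of which 120 higher and 80 lower were recovered. No test was run, with 1 library per group. Starts were made 1-based. Coding sequences were aligned with Biopython 1.88, and figures drawn with matplotlib 3.10.9. The members and the 19 lists were chosen with earlier results of these data known. Named were Kera and Lum, listed members of the proteoglycan, sugar chain, collagen and binding partner lists, neighbouring genes, and the 5 nearest transcripts to each member; other named genes were chosen after their values were seen. Lum has 3 values, so its nearest transcripts use 3 libraries. Alternatives were added FPKM, fold and level limits, named transcripts alone, other likeness measures and, chosen after seeing the data, centring on unlisted transcripts.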

Additional observations from a re-analysis of the deposited data

How the results depend on the processing

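No log2 ratio of Kera or Lum changed sign under the alternatives run; their sizes did. With 1 FPKM added, Kera gave 1.91, 2.08 and 2.01 for IBU+ACE over Control, ACE+ACE and ASP+ACE, -0.16 and -0.10 for ACE+ACE and ASP+ACE over Control, and 0.067 for ASP+ACE over ACE+ACE. With 0.1 FPKM added these were 3.59, 4.39, 4.02, -0.80, -0.43 and 0.37. Centred on the median of transcripts with both values and no row in the table (19 to 126 transcripts, medians from -0.16 to 0.21), a choice made after seeing the data, they were 4.03, 5.48, 4.61, -1.30, -0.54 and 0.76. The Kera ratios therefore depend on how values under 1 FPKM are treated. For Lum, IBU+ACE over Control was 0.67, 0.71 and 0.62 under the same 3 settings, IBU+ACE over ACE+ACE 0.97, 1.03 and 0.93, and ACE+ACE over Control -0.29, -0.32 and -0.16. Under a limit of 1 on the size of the log2 fold change, 1 proteoglycan gene was listed against Control, Kera. Named transcripts alone numbered 123 of 185 for IBU+ACE against Control, 40 of 67 for ACE+ACE and 21 of 44 for ASP+ACE against Control; 154 of 232 between IBU+ACE and ACE+ACE had a higher value of at least 1 FPKM. No paired analysis was possible because each group has 1 library and no test was run, and for the same reason no library could be left out. Depth is unknown, which limits the Kera values of the 3 libraries under 1 FPKM most.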
